A study of Bos taurus with 6 samples.

Results

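NOL8, DDX52 and SDAD1 encode nucleolar proteins of ribosome assembly, and the 3 genes were followed here in white blood cells of heifers before and after severe cold. They were chosen by their measured log2 difference between these same groups, since earlier results of these data had shown them lower after cold. Their own difference between the groups is therefore described and not tested. Every probe set whose platform annotation gives exactly 1 of these symbols was used, which gave 4 of the 12763 probe sets: 1 for NOL8 (gene identifier 767872), 1 for DDX52 (510826) and 2 for SDAD1 (507675).

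Ribosomes are built in the nucleolus, where RNA polymerase I makes the long precursor of ribosomal RNA and a large set of assembly factors folds, cuts and modifies it while ribosomal proteins bind. The precursors of the small and the large subunit part early and leave the nucleus by separate routes. DDX52 is a DEAD-box RNA helicase, the counterpart of yeast Rok1, which acts on the precursor of the small subunit. SDAD1 is the counterpart of yeast Sda1, a factor of large-subunit assembly and export. NOL8 is an RNA-binding nucleolar protein, related to yeast Nop8, a factor of the large subunit.

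The animals were female heifers of the Sanhe breed, housed in the same cowshed on a mixed ration. Blood taken before cold gave 3 arrays, numbered 4, 5 and 6. Blood taken after cold gave 3 arrays, numbered 1, 2 and 3, and the exposure was 3 hours outdoors at -32 °C and then 15 hours in a cowshed at 5 °C. No agent or genetic change separates the groups. The 6 RNA samples came from 3 animals of a herd of 30, and the labels name neither the samples that share an animal nor the point in the sequence at which the later blood was drawn. Each array gave 1 intensity per probe set, and values below are log2 intensities unless said otherwise.

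The labelled cell type was set beside its markers. Of 8 general leukocyte markers, 6 were measured, and none was dim: their mean intensities lay between percentiles 92.5 and 99.0 of all probe sets, a ranking that different probes' affinities also affect. They included PTPRC, the common leukocyte phosphatase CD45, with a mean of 11.66 after and 11.82 before cold. The haemoglobin gene HBB of red cells (12.06 and 11.97) and the platelet gene PF4 (12.53 and 12.63) were as bright, so the intensities do not give the share of each cell type. Array medians ran from 7.25 to 7.49. The first principal component of all probe sets held 68.4% of the variance and did not follow the groups, with scores of -1.31, -16.3 and 52.0 on before 4, 5 and 6 and -23.3, 52.1 and -63.2 on after 1, 2 and 3. Between after 2 and before 6 the correlation over all probe sets was 0.995, with 4 more than 2-fold apart, whereas 4867 were that far apart between after 2 and after 3. Results that rest on after 3 or after 2 are therefore given below without those arrays too.

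NOL8 was at 8.32, 8.70 and 8.60 on the 3 arrays before cold and at 7.58, 8.27 and 6.58 on after 1, 2 and 3. The before arrays lay close together, and the after arrays were all below them, with after 2 only 0.05 under the lowest before value and after 3 far down. The means were 8.54 ± 0.20 before and 7.48 ± 0.85 after cold (SD, n = 3 in each group). The difference was -1.06 ± 0.42 (SE of the limma fit), or 2.09-fold lower after cold. In whole blood cell RNA, fewer cells of a type that expresses a gene and less of its RNA per cell cannot be told apart.

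DDX52 was at 7.59, 7.57 and 7.60 before cold and at 6.49, 7.49 and 5.99 on after 1, 2 and 3. Its before arrays were almost level, spanning 0.03, while its after arrays were spread out. After 2 lay 0.08 under the lowest before value, and after 1 and after 3 lay more than 1 below it. The means were 7.59 ± 0.01 before and 6.66 ± 0.76 after cold (SD, n = 3 in each group), a difference of -0.93 ± 0.38 (SE), or 1.90-fold.

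SDAD1 was measured by 2 probe sets, and both were lower on every array after cold than on any before. The brighter probe set was at 7.35, 7.61 and 7.37 before cold and at 6.55, 7.27 and 5.83 on after 1, 2 and 3. Its difference was -0.90 ± 0.37 (SE), with means of 7.45 ± 0.15 before and 6.55 ± 0.72 after (SD, n = 3 in each group). The dimmer probe set was at 6.87, 7.29 and 6.72 before cold and at 5.73, 6.53 and 4.97 on after 1, 2 and 3. It had the larger difference, -1.22 ± 0.41, or 2.33-fold, and the widest gap between its groups, 0.20. Both probe sets were read on the same arrays, in the contrast that chose the gene, so nothing is read from their shared direction. On after 3 the dimmer probe set stood at percentile 12.9 of all probe sets of that array. How much of so dim a value is background was not measured here.

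**Figure D1:**
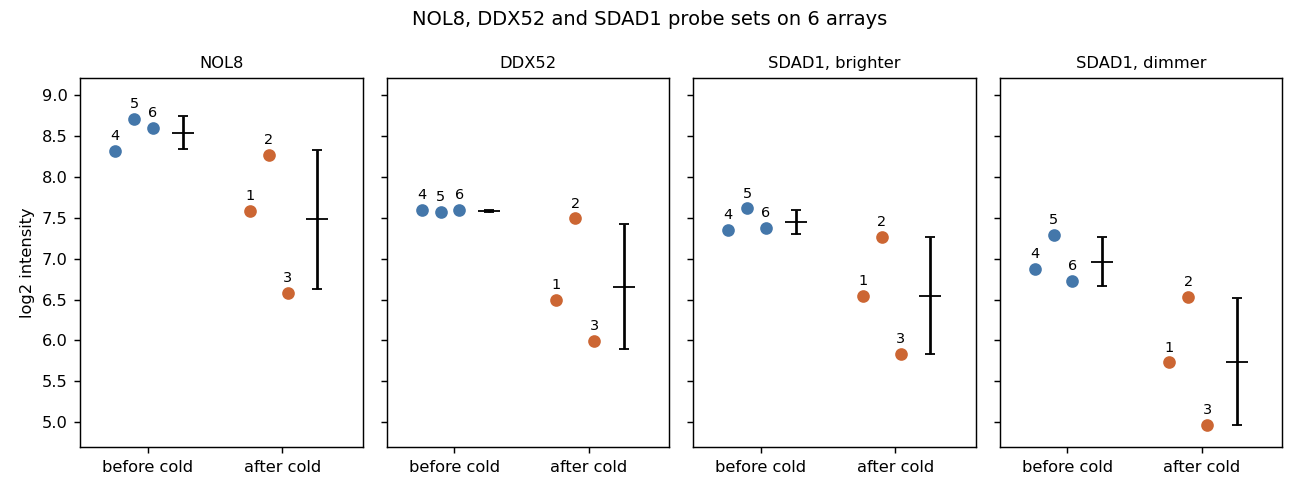
Log2 intensity of each of the 4 probe sets, with 1 point per array numbered as in the labels, blue before and orange after cold; black marks are the group mean ± SD over 3 arrays. Every after-cold point lies below every before-cold point, after 2 stays within 0.20 of the lowest before value and after 3 is the lowest of each panel.

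The 3 after-cold arrays differed from the before-cold arrays by very different amounts. NOL8 on after 3 was lower than on the before arrays by differences of -1.74 to -2.12, on after 1 by -0.73 to -1.12 and on after 2 by -0.05 to -0.43. For DDX52 the same differences were -1.58 to -1.60 on after 3, -1.08 to -1.10 on after 1 and -0.08 to -0.11 on after 2. The dimmer SDAD1 probe set differed by -1.76 to -2.33 on after 3, -0.99 to -1.56 on after 1 and -0.20 to -0.76 on after 2. After 3 had the lowest and after 2 the highest score of the first component, and after 1 lay between them. The same order did not hold before cold for NOL8, at 8.70 on before 5 (score -16.3) and at 8.60 on before 6 (score 52.0). Both SDAD1 probe sets were also highest on before 5. DDX52 did follow the scores, at 7.57, 7.59 and 7.60 on before 5, 4 and 6, but within a span of 0.03. The part of this component in the members' difference was not tested.

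**Figure D2:**
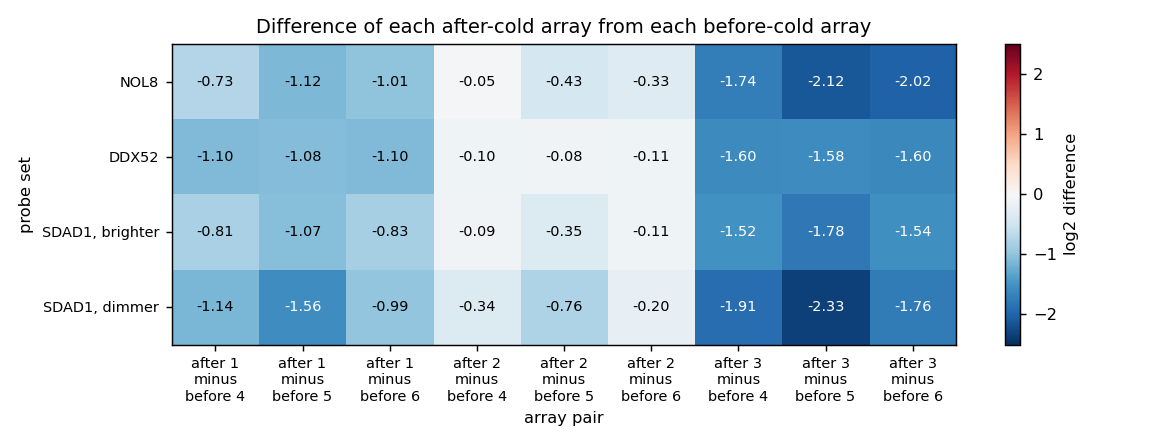
Log2 difference of each after-cold array from each before-cold array for the 4 probe sets; darker blue is lower after cold. The columns of after 2 hold values from -0.05 to -0.76 and those of after 3 values from -1.52 to -2.33.

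The near-identical arrays after 2 and before 6 are a pair in which few other probe sets differ. NOL8 was lower on after 2 than on before 6 by a difference of -0.33, and 3.17% of all probe sets had a difference as low or lower in that pair. For DDX52 (-0.11) the share was 19.9%, for the brighter SDAD1 probe set (-0.11) 20.0% and for the dimmer one (-0.20) 9.61%. In the pair after 1 and before 4, which correlated at 0.986, the shares were 3.31% for NOL8, 0.407% for DDX52, and 2.20% and 0.306% for the SDAD1 probe sets. These arrays belong to the contrast that chose the genes, so the shares are a description and nothing is read from them.

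Ordered by the difference of group means, the dimmer SDAD1 probe set was number 2 from the lowest of all 12763, NOL8 number 16, DDX52 number 70 and the brighter SDAD1 probe set number 92. A mean lower by at least 1.5-fold with groups that did not overlap was found in 156 probe sets, or 1.22%, and all 4 members' probe sets were among them. This order and this count come from the contrast that chose the genes, so nothing is read from them. Leaving out after 3 reduced the differences to -0.61 for NOL8, -0.59 for DDX52, and -0.54 and -0.83 for the SDAD1 probe sets. Without after 2 they were -1.46, -1.34, -1.26 and -1.61 in the same order. Scaling the arrays to each other by median, quantile or cyclic loess left the differences between -0.82 and -1.19, and the groups of each probe set did not overlap under any of them.

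No probe set of the whole table passed the test between the groups. With limma and Benjamini-Hochberg adjustment, 0 of 12763 (0%) had an adjusted p under 0.05, and 63 had an unadjusted p under 0.05. The latter count was 5 without after 3 and 1787 without after 2. The smallest adjusted p was 1.00. An exact permutation of 3 arrays against 3 cannot give a two-sided p below 0.1. In simulated data the limma test passed 5.97% of log2 changes of -1. A count of 0 thus does not show that no gene changed by that much. The simulated noise was independent between probe sets and few of them were changed, whereas 1 component held 68.4% of the variance of the real arrays. The simulated share may therefore differ from that in these data. The groups hold samples of the same animals, and which ones is not stated, so spread between animals stays in the error. With each of the 6 possible matchings of samples as a block, 0 probe sets passed, 24 to 1168 had an unadjusted p under 0.05, and the SE of the NOL8 difference ran from 0.29 to 0.46 and that of DDX52 from 0.28 to 0.43.

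The other ribosome assembly genes did not pass either, and most of them lay near 0. Of 179 genes in 6 lists by role, 135 were measured, and 0 had an adjusted p under 0.05 in limma, in either direction. At an unadjusted p under 0.05 there was 1, NMD3. A lower mean after cold was seen in 74 and a higher mean in 61, where 47.6% of all probe sets had a lower mean. The median difference was -0.03, against 0.02 over all probe sets. The assembly median was above 0 with median centring (0.0015) and with cyclic loess (0.0042). Under those scalings the median over all probe sets was 0.053 and 0.064, so the assembly median stayed below it. The low tail was longer than the high one. A mean lower by at least 1.5-fold was found in 16 genes, or 11.9%, against 6.81% of all probe sets, and a mean higher by that much in 0, against 0.227%. Groups that did not overlap, with the lower values after cold, were found in 10 genes, or 7.41%, against 2.31% of all probe sets. Those with the higher values after cold were found in 1, against 2.07%. Among the 6337 named genes, each at its brightest probe set as in the lists, the shares were 6.82% lower by 1.5-fold and 3.00% lower without overlap. Of these named genes 2771 had a lower and 3566 a higher mean after cold, and their median difference was 0.046. All 16 were lowest on after 3. In 8 of them after 2 lay inside or above the range before cold, and in the rest it lay below that range. It lay below in the members too, but they were chosen from this contrast, so nothing is read from that. After 3 carried the fold count, since without that array 0 of the 135 were lower by 1.5-fold, against 0.619% of all probe sets. Without after 2 there were 32, or 23.7%, against 22.2%. Groups that did not overlap became 40 of 135 without after 2 (29.6%, against 22.6% of all probe sets), 20 without after 1 (14.8%, against 4.75%) and 17 without before 6 (12.6%, against 4.80%).

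Of the small-subunit genes, 45 of 56 were measured, 8 were lower by at least 1.5-fold (17.8%, against 6.81% of all probe sets), and 3 were lower in groups that did not overlap (6.67%, against 2.31%). WDR75, a member of the complex that first binds the ribosomal RNA precursor, was at 9.42, 9.51 and 9.55 before cold and at 8.40, 9.57 and 7.68 on after 1, 2 and 3. Its after 2 value was the highest of the 6, and its difference was -0.94 ± 0.45 (SE). The kinase gene RIOK2, which acts late on the small-subunit precursor, was at 8.11, 8.30 and 8.05 before cold and at 7.64, 8.01 and 6.29 after. Its groups did not overlap, as in DDX52, and its difference was -0.84 ± 0.43. UTP15, a partner of WDR75 in that early complex, differed by -0.77 ± 0.34. At the other end, the RNA methyltransferase gene EMG1 differed by 0.37 ± 0.45 and RRP7 by 0.38 ± 0.35. PDCD11, the counterpart of the yeast factor Rrp5 that works with Rok1, differed by 0.14 ± 0.25, with 7.74, 7.67 and 7.32 before and 7.74, 7.59 and 7.84 after cold. It thus showed none of the low values of DDX52 on after 1 and after 3.

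Of the large-subunit genes, 36 of 56 were measured, 4 were lower by at least 1.5-fold (11.1%, against 6.81% of all probe sets) and 3 were lower in groups that did not overlap (8.33%, against 2.31%). MAK16, a factor of early large-subunit precursors, differed by -0.74 ± 0.33 (SE). NIFK, a nucleolar protein that binds the proliferation marker Ki-67, was at 8.78, 8.86 and 8.46 before cold and at 8.20, 8.40 and 7.39 on after 1, 2 and 3. GNL3, the nucleolar GTPase nucleostemin, was at 7.43, 7.44 and 7.40 before and at 7.09, 7.36 and 5.97 after. Both had groups that did not overlap, and the level before values with a low after 3 in GNL3 resemble those of DDX52. Their differences were -0.70 ± 0.33 and -0.62 ± 0.38. WDR74 and the large ATPase MDN1, which remodels these precursors, differed by 0.29 ± 0.33 and 0.29 ± 0.45. NIP7 and GNL3L, factors of the same branch, were not analysed here. DDX47, a helicase reported to bind NOL8, was at 9.15, 9.15 and 8.70 before and at 9.14, 8.74 and 9.11 after cold, a difference of -0.0023 ± 0.27.

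The export and late maturation genes of the large subunit were few, with 6 of 8 measured and a median of -0.39. NMD3, the adaptor that links the large subunit to the export receptor, was at 8.80, 9.27 and 8.94 before cold and at 8.36, 8.70 and 7.65 on after 1, 2 and 3. Its groups did not overlap, after 3 was lowest, and its difference was -0.76 ± 0.33 (SE; limma, adjusted p = 1.00). The export receptor gene XPO1 differed by -0.48 ± 0.50. SBDS, which helps to release EIF6 from the new subunit, differed by -0.42 ± 0.33, and its other probe sets by -0.30 ± 0.34 and -0.90 ± 0.43. EIF6, the factor that keeps the subunits apart, differed by 0.11 ± 0.32 and ZNF622 by 0.17 ± 0.34.

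Genes of the small nucleolar RNA particles, which guide the chemical modification of ribosomal RNA, had 16 of 18 measured and a median of 0.05. Of the 16, 0 were lower by at least 1.5-fold, against 6.81% of all probe sets. NOP10, which was dim at percentile 5.92 of mean level, differed by -0.47 ± 0.50 (SE), NOP56 by -0.23 ± 0.27 and GAR1 by -0.20 ± 0.27. RUVBL2, an ATPase that helps to assemble the particles, differed by 0.27 ± 0.40 and TCOF1, the nucleolar protein treacle, by 0.29 ± 0.29. Of the nucleases that trim the precursors, 18 of 23 were measured and 1 was lower by at least 1.5-fold (5.56%, against 6.81%). It was C1D, a cofactor of the exosome, at 6.86, 6.59 and 6.85 before cold and at 6.52, 6.58 and 4.76 on after 1, 2 and 3, where after 3 alone was far down. Exosome subunits lay on both sides, EXOSC9 at -0.41 ± 0.33 and EXOSC4 at 0.48 ± 0.39, and the exosome nuclease DIS3 at -0.32 ± 0.40.

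RNA polymerase I and nucleolar chromatin genes had 14 of 18 measured and a median of -0.13. Of the 14, 2 were lower by at least 1.5-fold (14.3%, against 6.81% of all probe sets). TAF1B, a subunit of the factor that brings the polymerase to its promoter, differed by -0.71 ± 0.33 (SE) in its brightest probe set. Its other probe sets gave -0.34 ± 0.29 and 0.11 ± 0.23, so they did not share a direction. The polymerase subunit gene POLR1F was at 4.91, 5.18 and 4.98 before cold and at 4.47, 4.75 and 3.92 on after 1, 2 and 3. Its mean level was at percentile 6.85 of all probe sets, and the part of background in so dim a signal was not measured. Another subunit, POLR1G, differed by 0.34 ± 0.32, and the abundant nucleolar protein gene NCL by -0.55 ± 0.39. MYC, a transcription factor known to drive ribosome synthesis, was at 10.40, 10.56 and 10.97 before and at 10.65, 10.84 and 11.24 after cold. Its groups overlapped, and after 3, where the members were lowest, held its highest value.

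**Figure D3:**
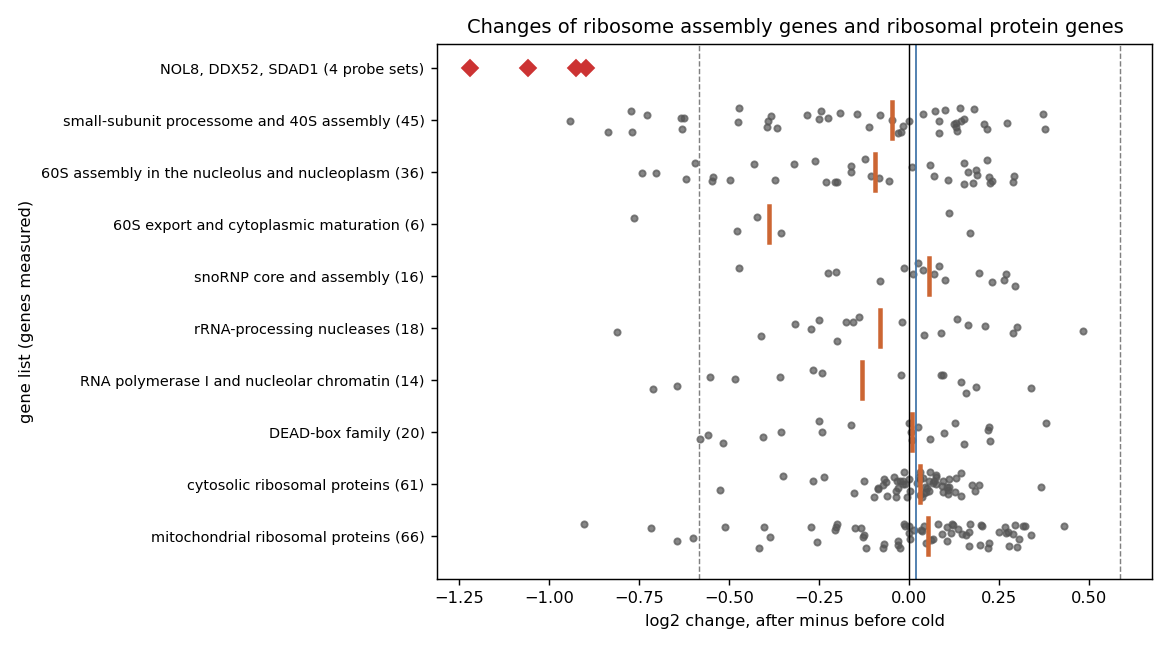
Log2 difference of group means, after minus before cold, for the 4 member probe sets (red diamonds) and 1 probe set per gene of each list (grey points); orange bars are list medians, the blue line is the median of all probe sets (0.02) and dashed lines mark 1.5-fold. The members were chosen for their low values, and the assembly lists reach from -0.94 to 0.48 with medians from -0.39 to 0.05.

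DDX52 was compared with the other measured DEAD-box genes, a family of ATP-driven RNA helicases with roles from splicing to translation. Of 20, 0 were lower by at least 1.5-fold (6.81% of all probe sets), and the median was 0.0061. Groups that did not overlap were found in 0. Over all probe sets they were found in 2.31% with lower and 2.07% with higher values after cold. With 20 genes, counts of 0 do not set the family apart from those shares. The lowest were DDX21, a nucleolar helicase tied to RNA polymerase I, at -0.58 ± 0.39 (SE), its close relative DDX50 at -0.56 ± 0.45 and DDX1 at -0.52 ± 0.33. DDX21 was dim, with a mean level at percentile 10.5 of all probe sets. The highest were DDX39A at 0.38 ± 0.35 and DDX56 at 0.23 ± 0.37. A test of DDX52 against its family was not made, since DDX52 was chosen for its difference.

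Ribosomal protein genes, whose products the assembly factors put in place, were described in the same way. Of 61 cytosolic genes, 0 were lower by at least 1.5-fold, against 6.81% of all probe sets, and their differences ran from -0.53 to 0.37 with a median of 0.03. Their groups did not overlap in 3 with the lower values after cold (4.92%, against 2.31%). They did not overlap in 2 with the higher values after cold, against 2.07% of all probe sets. The median of their mean levels was at percentile 99.6 of all probe sets, and whether signals so near the top of the range can show a difference in full was not measured. Of 66 mitochondrial ribosomal protein genes, 4 were lower by at least 1.5-fold (6.06%, against 6.81% of all probe sets), with a median of 0.05 and differences from -0.90 to 0.43. In limma 0 genes of either set passed an adjusted p of 0.05. At an unadjusted p under 0.05 there were 0 cytosolic and 1 mitochondrial.

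The genes next to the members in RefSeq's cattle annotation (assembly ARS-UCD2.0) were read on the same arrays. IARS1, the isoleucyl-tRNA synthetase gene beside NOL8, was at 9.69, 9.24 and 9.71 before cold and at 8.48, 9.62 and 8.51 on after 1, 2 and 3. As in NOL8, after 1 and after 3 were lower than every before array, but after 2 lay inside the before range, and the difference was -0.68 ± 0.37 (SE). OGN, an extracellular matrix gene on the other side with 1 gene between, differed by -0.65 ± 0.66. The measured neighbours of DDX52 were SYNRG, at 0.10 ± 0.28, and HEATR6, at 0.21 ± 0.25. Those of SDAD1 were the amidase gene NAAA, at -0.04 ± 0.31, and the chemokine gene CXCL10, at -0.34 ± 0.44. In limma each of the 6 neighbours had an adjusted p of 1.00.

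The members resembled each other in their pattern over the 6 arrays. Likeness was measured as the root mean square difference of log2 values, each centred on the probe set's own mean, so that 0 is the same pattern. It was 0.12 between DDX52 and the brighter SDAD1 probe set, 0.14 between NOL8 and that probe set and 0.20 between NOL8 and DDX52. The median over all probe sets was 0.77 from NOL8, 0.67 from DDX52 and 0.67 from SDAD1. Many other probe sets were as close: 13 were closer to DDX52 than SDAD1 was, 20 were closer to NOL8 than SDAD1 was and 101 were closer to NOL8 than DDX52 was. The SDAD1 probe sets differed from each other by 0.19, and 187 other probe sets were closer to the brighter one. All members were chosen for a low mean after cold, so likeness among them is in part set by that choice.

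The named genes nearest to NOL8 were MOSPD1 (0.09), BROX (0.10), the secretory granule GTPase gene RAB27A (0.10), the autophagy receptor gene TAX1BP1 (0.11) and the tethering factor gene VPS50 (0.12). RAB27A was at 10.86, 11.27 and 10.98 before cold and at 10.24, 10.84 and 9.29 on after 1, 2 and 3, low on the same arrays as NOL8. Nearest to DDX52 were PIK3C3 (0.07), a lipid kinase of endosomes and autophagy, RBM18 (0.08), the RNA export adaptor gene PHAX (0.08), SPTLC1 (0.09), a subunit of the first enzyme of sphingolipid synthesis, and the splicing factor gene SNW1 (0.10). Nearest to the brighter SDAD1 probe set were PHAX and SNW1 again (0.07 each), the DNA damage checkpoint gene RAD17 (0.07), the retromer gene VPS35 (0.07) and the translation termination gene ETF1 (0.08). PHAX was at 8.95, 9.08 and 9.06 before cold and at 8.11, 8.89 and 7.47 on after 1, 2 and 3. Its after 2 value lay just under the before range. The nearest genes were picked for patterns like the members' over the same arrays, so low values on those arrays follow from that choice. None of these genes belongs to the 6 assembly lists.

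**Figure D4:**
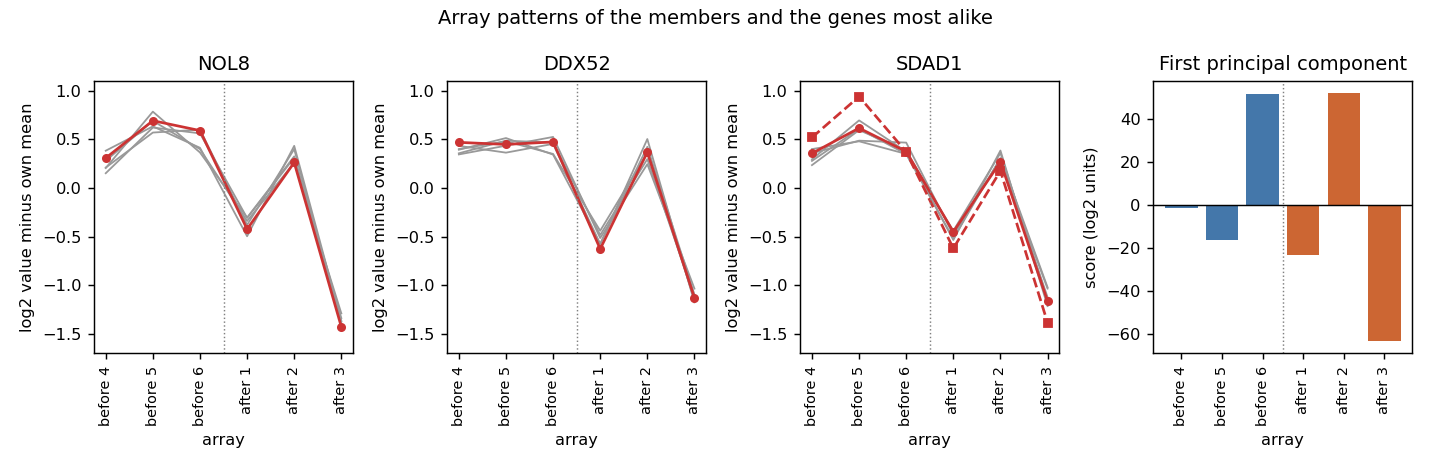
Log2 value minus the probe set's own mean on each array for NOL8, DDX52 and SDAD1 (red; the dashed line is the dimmer SDAD1 probe set) with the 5 genes nearest in pattern to each (grey), and the score of each array on the first principal component. Before cold the red lines span 0.03 for DDX52, 0.38 for NOL8, and 0.26 and 0.57 for the SDAD1 probe sets, and after cold they are highest on after 2 and lowest on after 3, while the scores of before 6 and after 2 are alike (52.0 and 52.1).

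Marker lists of blood cell types were set beside the members. Of the list set up for eosinophils, basophils and mast cells 3 of 8 genes were measured (ALOX15, CCR3 and RNASE6). Their summed intensity was 3782 to 4863 before cold and 1872 to 3962 after, lowest on after 3. Most of that sum was RNASE6, a myeloid defence gene not particular to these cells, so the sum does not follow them. RNASE6 was at 11.86, 12.03 and 11.59 before cold and at 11.67, 11.72 and 10.45 on after 1, 2 and 3. ALOX15 was at 8.53, 6.91 and 8.44 before and at 7.76, 7.49 and 6.17 after. CCR3 did not share the low after 3, at 9.31, 9.14 and 8.44 before cold and at 8.90, 8.48 and 8.64 after. T cell markers, 9 of 10 measured, summed to 13940 to 21978 before and 14382 to 19667 after cold. Monocyte markers, 6 of 9, summed to 2942 to 5045 before and 3168 to 5464 after, and neutrophil markers, 5 of 9, to 16637 to 25194 before and 19261 to 25179 after. The monocyte sums were highest on after 3 (5464) and before 5 (5045), which held the lowest and the highest NOL8 values. B cell markers, 4 of 8, summed to 5466 to 6499 before and 5423 to 6501 after, and NK and cytotoxic markers, 7 of 8, to 2245 to 4210 before and 2290 to 5080 after. Platelet genes, 2 of 8, summed to 7722 to 10324 before and 7583 to 7855 after, and red cell genes, 2 of 9, to 3817 to 4990 before and 4287 to 5046 after. The sums of each list overlapped between the groups. Such a sum rests most on its brightest gene, as S100A8 for neutrophils or FCN1 for monocytes. Of single markers, the dim MSR1 (-0.66) and GZMB (-0.59) were lower and POU2AF1 (0.46) was higher in groups that did not overlap. Over all probe sets such groups were found in 2.31% with lower and 2.07% with higher values after cold. The part of cell composition in the members' values was not tested.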

How the data were processed

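RNA of white blood cells was hybridised to Affymetrix bovine arrays after biotin labelling of 100 ng total RNA, per the labels' protocols. The deposited table holds linear intensities, 1 per probe set and array. The authors used GCOS and RMA, per the submitters' processing notes, with versions, genome build and any probe set filter not given in the sources used here. Their log2 was tested with limma 3.58.1 in R 4.3.3, after minus before cold, two-sided, with moderated variance, no block, no pseudocount and no filter, and with Benjamini-Hochberg adjustment over all 12763 probe sets. The scripts were tested on simulated data with 12763 probe sets, with noise independent between probe sets and arrays and changes placed in few of them. An adjusted p under 0.05 was reached by 5.97% of simulated log2 changes of -1, 50.7% of -2 and 84.8% of -3. Detection calls were not used, and the number of arrays limits the precision.

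The platform annotation gave 8125 probe sets a single symbol, 56 several and 4582 none. Of the 8125, 8109 matched the RefSeq gene table of ARS-UCD2.0, used for names and neighbours. A listed gene stands for its brightest probe set. Named genes are the members, PDCD11, DDX47, NIP7, GNL3L, MYC, measured neighbours, the 3 lowest and 2 highest of each assembly list and of the DEAD-box family, the 5 nearest patterns and cell type markers; part of them is printed. The members and lists were chosen with earlier results of these data known. Promoter motifs and protein sequences were planned and are not analysed here. Alternatives were dim filters, an intensity trend, array weights, other scalings, left-out arrays, 6 matchings, averaged probe sets and a threshold of 0.10.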

Additional observations from a re-analysis of the deposited data

How the results depend on the processing

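With limma, 0 probe sets and 0 assembly genes passed an adjusted p of 0.05 in every setting run, including 0.10 as the threshold, the intensity trend and each of the 6 matchings as a replicate block (0 in each). Of 159 values under alternatives, 133 kept their direction and stayed within 1.5 times or 1 SD. The 133 include the counts of 0 passing, which have no direction. They also include member differences under the dim filters, which such a filter cannot change. The members' differences stayed below 0 in each alternative. On leaving out arrays this sign was fixed in advance, since every after value lay below every before value. Their size then ran from -1.46 to -0.61 for NOL8 and -1.34 to -0.59 for DDX52. For the SDAD1 probe sets it ran from -1.26 to -0.54 and -1.61 to -0.83. Without the dimmest 50% of probe sets only NOL8 of the members is left.

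The 16 assembly genes lower by at least 1.5-fold became 10 without the dimmest 50%, 29 with array weights, 27 without after 2 and before 6, and 0 (without after 3) to 32 (without after 2) on leaving out each array. The same count over all probe sets, 869, became 406, 1490 and 1965 in those 3 settings and 79 to 2837 on leaving out each array, with the extremes from the same arrays. The 10 assembly genes lower in groups that do not overlap became 3 without the dimmest 50%, 45 without after 2 and before 6, and 10 to 40 on leaving out each array (20 without after 1, 40 without after 2, 17 without before 6). Over all probe sets the 295 became 149, 3140, and 389 to 2887. The assembly median of -0.03 became 0.023 without the dimmest 50%, 0.0015 with median centring, 0.0042 with cyclic loess and -0.13 with array weights. Over all probe sets the median of 0.019 became 0.040, 0.053, 0.064 and -0.019 in the same order. Fewer arrays make groups that do not overlap more likely. The filter on the dimmest 50% left 91 of the 135 assembly genes, and the share without overlap was 3.30% there against 7.41% before it. Over all probe sets that share was 2.33% with the filter and 2.31% before it. The cause of the lower assembly share and of the other shifts was not tested. Limits set by signal over background could not be measured without detection calls.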
